A study of Homo sapiens with 4 samples.

Results

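The genes examined here are 10 components of the Notch pathway in A549 cells, a human lung adenocarcinoma line, with or without ectopic USP12, a deubiquitinase for which NOTCH is a reported substrate. They comprise 3 receptors (NOTCH1, NOTCH2 and NOTCH3), 3 ligands (JAG1, JAG2 and DLL1) and 4 target genes (HES1, HES4, HEY1 and NRARP), taken by gene name from the 50868 genes in the count files. Of these 10, 9 had enough counts to be tested, and DLL1 did not. RNA-seq had been performed on 4 libraries. The control group was A549 cells without added USP12 (n = 2), labelled CON, which the paper's figure legends call EV, for vector control. The USP12 group was A549 cells that overexpressed USP12 (n = 2), for which pLVX lentiviral vectors were the study's tool. No drug or cytokine is named in the labels for either group, and no source used here states whether the 2 libraries of a group came from separate cultures, so p-values measure only the spread between these libraries, which may be technical. The use of pools or of a single clone for the overexpressing line is not given in the sources used here.

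Notch receptors are single-pass membrane proteins that are activated by ligands on a neighbouring cell. Ligand binding exposes the receptor to the protease ADAM10 and then to γ-secretase, which frees the intracellular domain. That domain enters the nucleus, joins the DNA-binding protein RBPJ and a Mastermind co-activator, and switches on repressors of the HES and HEY families together with the feedback inhibitor NRARP. In the airway epithelium, Notch activity favours secretory over multiciliated cells, and HES1 represses neuroendocrine fate. Because USP12 acts on receptor protein and receptor activation is proteolytic, neither step is read by RNA counts, which show the transcripts of the pathway and of its targets.

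The promoter windows of 3 targets are shown, because a target responds to Notch through RBPJ sites. Each window holds 250 bases before and 50 bases after the RefSeq start site (GRCh38.p14), printed 5′ to 3′ on the strand of the gene, with the RBPJ core motif TGGGAA, or TTCCCA on the other strand, in capitals. HES1 lies on the plus strand (chr3:194135898-194136197), HES4 on the minus strand (chr1:1000048-1000347) and NRARP on the minus strand (chr9:137302222-137302521).
HES1: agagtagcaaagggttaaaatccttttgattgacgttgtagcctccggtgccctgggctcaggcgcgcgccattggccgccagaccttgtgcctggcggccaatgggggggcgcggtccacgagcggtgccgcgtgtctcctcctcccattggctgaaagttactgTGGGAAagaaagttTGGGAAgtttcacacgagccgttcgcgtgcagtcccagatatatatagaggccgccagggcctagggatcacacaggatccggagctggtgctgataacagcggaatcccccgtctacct
HES4: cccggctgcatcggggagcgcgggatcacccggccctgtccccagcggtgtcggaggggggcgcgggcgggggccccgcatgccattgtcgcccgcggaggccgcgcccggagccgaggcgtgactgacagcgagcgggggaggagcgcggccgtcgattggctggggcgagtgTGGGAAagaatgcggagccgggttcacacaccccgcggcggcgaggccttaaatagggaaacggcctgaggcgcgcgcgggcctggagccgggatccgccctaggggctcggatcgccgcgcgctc
NRARP: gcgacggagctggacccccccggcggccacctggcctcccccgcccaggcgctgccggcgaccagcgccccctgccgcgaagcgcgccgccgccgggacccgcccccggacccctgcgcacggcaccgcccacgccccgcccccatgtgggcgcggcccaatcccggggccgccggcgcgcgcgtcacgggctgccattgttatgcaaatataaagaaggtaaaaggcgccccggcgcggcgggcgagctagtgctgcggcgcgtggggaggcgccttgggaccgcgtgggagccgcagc
The HES1 window held 2 copies of the core, beginning 84 and 70 bases before the start, and the HES4 window held 1 copy, beginning 76 bases before it. All 3 copies read in the direction of transcription. The longest stretch that the HES1 and HES4 windows shared was the 12 bases tgTGGGAAagaa, which surrounds the first HES1 copy and the only HES4 copy. In the NRARP window these letters were not found on either strand. Of 35116 RefSeq promoter windows of the same length, 24% held TGGGAA on either strand and 3.80% held at least 2 copies, while the longer form GTGGGAA, which includes the core and occurred once each in HES1 and HES4, was in 6.25%. The windows of NOTCH1, NOTCH2, NOTCH3, JAG1 and JAG2 held no copy. A match is a run of letters and not a measured binding site. Only exact TGGGAA and GTGGGAA were searched for, so sites with other letters are not counted. RefSeq windows were found for 8 of the 10 genes, and those of DLL1 and HEY1 were not used here.

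**Figure D1:**
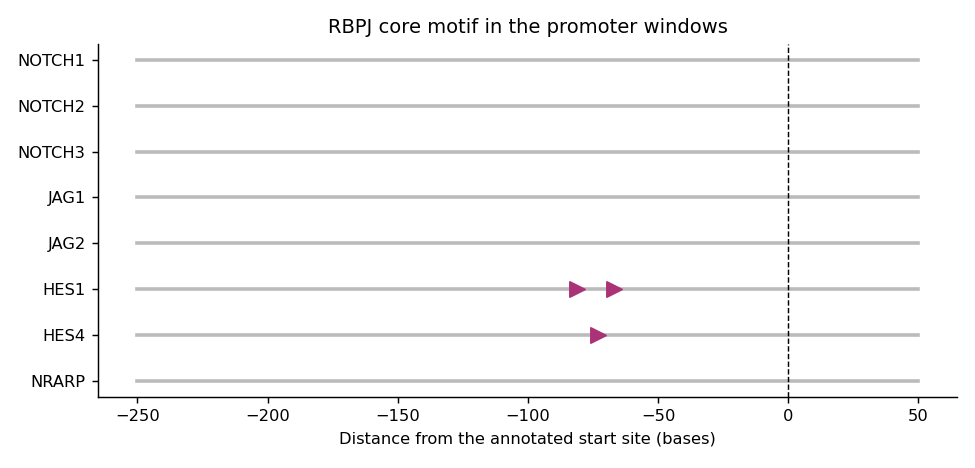
Position of the RBPJ core TGGGAA (triangles, pointing in the reading direction) in the promoter windows of 8 Notch genes (rows). The horizontal axis is the distance in bases from the annotated start site (dashed line), and the grey bars span 250 bases before to 50 bases after it. HES1 carries 2 copies and HES4 carries 1, and the other 6 windows carry none.

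The total counts were between 14280081 and 16305356 per library. Counts were scaled to CPM, a gene's share of the library's total, by edgeR's TMM factors, and pairs of values are given for replicate 1 and then replicate 2. On this scale 3 counts, taken as the floor, corresponded to 0.166 to 0.227 CPM, which covers counting error only. USP12 itself was at 15.2 and 34.4 CPM in control and at 1744.5 and 2235.4 CPM in USP12 cells (log2 fold change 6.32, SE 0.57, edgeR adjusted p = 0.0975), so the labels were matched by the transgene in 4 of 4 libraries. The control libraries differed more between themselves than the USP12 libraries did. The median size of the log2 ratio over 15222 tested genes was 0.88 within the control pair and 0.24 within the USP12 pair. Control replicate 1 bears another prefix in its column heading than the other 3 libraries, so the values within the shared prefix are those without control replicate 1. A batch that holds 1 library cannot be told apart from that library. The epithelial markers (EPCAM, CDH1, KRT7, KRT8, KRT18, KRT19 and MUC1) were above the floor in 7 of 7 genes, and summed to 12909.9 and 7490.9 CPM in control and 7320.1 and 6800.4 CPM in USP12 cells. Of these, KRT19 and MUC1 met the criterion described below as lower (log2 fold changes -2.14 and -1.62). The alveolar markers SFTPC, SFTPB and SFTPA1 were at or under 3 counts in every library. Leukocyte markers were at or under 3 counts for 4 of 6 genes, PTPRC included, and summed to between 47.7 and 79.8 CPM, mostly CD68. Fibroblast markers summed to between 3.21 and 21.2 CPM, with DCN at 0 counts in every library. Endothelial markers summed to 15.4 and 8.59 CPM in control and 0.504 and 1.52 CPM in USP12 cells. That sum came from CDH5 and PECAM1, while VWF, KDR, TEK and CLDN5 were at or under 3 counts in every library. The part of these markers in the Notch values was not tested.

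None of the 9 tested genes had an adjusted p under 0.05 (0 of 9 by the quasi-likelihood test of edgeR), and the same held for 0% of all 15222 tested genes. At an unadjusted p under 0.05 there was 1 of the 9, HES4, against 7.59% of all tested genes. A second rule, called the criterion here, took the cut-offs that the study gives for lower genes and applied them to unadjusted p and to both directions. It asked for an unadjusted p no higher than 0.05 together with a log2 fold change at or beyond 1 in either direction. The criterion was met by 1 of 9 genes, or 11.1%, against 7.33% of all tested genes. That gene was HES4, which was lower (1 of 9, against 4.41% of all tested genes), and 0 of 9 were higher, against 2.92%. With DESeq2's Wald test, 0 of the 9 had an adjusted p under 0.05, where 273 of all tested genes were lower and 133 higher at that threshold. With edgeR's exact test it was 0 of the 9, where 250 of all tested genes were lower and 160 higher. The libraries of the groups did not overlap for 3 of 9 genes, against 36.5% of all tested genes. These were HES1 and HES4, with the USP12 libraries under the control libraries (17% of all tested genes), and JAG2, with both above (19.5%). The point estimate was below 0 for 4 of 9 genes, against 53.6% of all. Their median log2 fold change was 0.04, and its median size was 0.30, against 0.42 over all tested genes. These shares were near those of all tested genes.

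**Figure D2:**
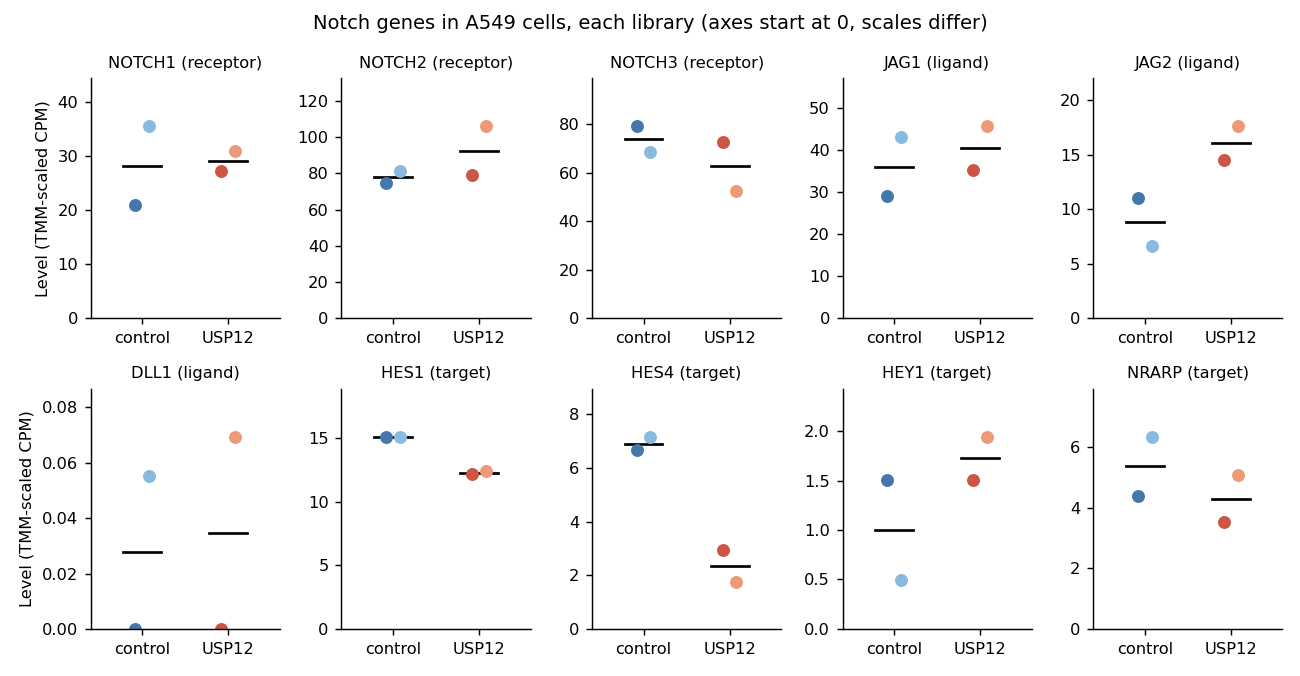
Level of each of the 10 Notch genes in CPM (vertical axis, starting at 0, with a scale of its own in each panel) in the control (blue) and USP12 (red) libraries. The darker point of each pair is replicate 1 and the bar is the mean of 2 libraries. The groups are separate for HES1, HES4 and JAG2, and DLL1 rests on at most 1 count.

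NOTCH1, NOTCH2 and NOTCH3 encode the receptors, and their transcripts differed between the groups by less than their errors. NOTCH1 (ENSG00000148400, GRCh38 chromosome 9, 136494433 to 136546048, minus strand) had 21.0 and 35.5 CPM in control and 27.3 and 31.0 CPM in USP12 cells. Both USP12 libraries lay between the control libraries. The log2 fold change was 0.04 (SE 0.45, 95% interval -1.06 to 1.15, edgeR adjusted p = 0.991), while the control libraries themselves differed by -0.76 (replicate 1 minus 2). Leaving out control replicate 1 gave -0.28 and leaving out control replicate 2 gave 0.50, so its sign turned with the control library used. NOTCH2 (ENSG00000134250, chromosome 1, 119911553 to 120100779, minus strand) had 74.9 and 81.3 CPM in control and 79.1 and 106 CPM in USP12 cells. USP12 replicate 2 was the highest, and USP12 replicate 1 lay between the control libraries. NOTCH2 thus had a log2 fold change of 0.25 (SE 0.36, 95% interval -0.64 to 1.13). Its 5′ exons have near-identical copies in the NOTCH2NL genes, and only uniquely mapped fragments were counted, so its level is uncertain. The copy listed as NOTCH2NL had 90 and 40 counts in control and 2 and 52 in USP12 libraries. NOTCH3 (ENSG00000074181, chromosome 19, 15159038 to 15200995, minus strand) had 79.2 and 68.8 CPM in control and 72.6 and 52.7 CPM in USP12 cells. USP12 replicate 2 was the lowest, and the groups overlapped. For NOTCH3 the log2 fold change was -0.24 (SE 0.38, 95% interval -1.16 to 0.68).

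Per kilobase of exon, the receptor makeup was led by NOTCH3 in 3 of 4 libraries. NOTCH3 made up 57.8% and 48.8% of the summed receptor level per kilobase in control and 52.8% and 38.9% in USP12 cells. NOTCH2 made up 30.7% and 32.4% in control and 32.3% and 44% in USP12 cells, the last value being above that of NOTCH3. NOTCH1 was the smallest share in each library, between 11.5% and 18.9%. The ratio of NOTCH3 to NOTCH2 counts within a library, which does not depend on the scaling, was 1.06 and 0.846 in control and 0.918 and 0.497 in USP12 libraries, and USP12 replicate 2 stood lowest.

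JAG1 and JAG2 encode the Jagged ligands, and JAG2 was the only ligand whose libraries were separate between the groups. JAG1 (ENSG00000101384, chromosome 20, 10637684 to 10673999, minus strand) had 29.0 and 43.0 CPM in control and 35.2 and 45.6 CPM in USP12 cells, with the groups overlapping. JAG1 had a log2 fold change of 0.17 (SE 0.42, 95% interval -0.87 to 1.20), and it was -0.09 without control replicate 1. JAG2 (ENSG00000184916, chromosome 14, 105140982 to 105168824, minus strand) had 146 and 120 counts in control and 201 and 254 counts in USP12 libraries, or 11.0 and 6.65 against 14.5 and 17.6 CPM. Both USP12 libraries were above both control libraries. The log2 fold change was 0.86 (SE 0.49, 95% interval -0.34 to 2.05, edgeR adjusted p = 0.834), a 1.81-fold difference that did not pass either rule, and the control libraries differed by 0.72. Without control replicate 1, the log2 fold change of JAG2 was 1.27, and without control replicate 2 it was 0.57. In both of these fits the spread came from the USP12 pair alone. A long noncoding RNA gene overlaps JAG2 on the same strand (ENSG00000257622), and had 12 and 5 counts in control and 0 and 4 in USP12 libraries.

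DLL1, a Delta-type ligand, had 0 and 1 counts in control and 0 and 1 counts in USP12 libraries. These counts are under the floor of 3, so no fold change is given, and its level was not detectable at this depth in either group. FAM120B overlaps DLL1 on the opposite strand, and had 246 and 594 counts in control and 401 and 426 in USP12 libraries. Of the ligand level per kilobase, JAG1 held 64.3% and 81.4% in control and 62.6% and 63.9% in USP12 cells. The JAG2 to JAG1 ratio of counts was 0.381 and 0.155 in control and 0.411 and 0.386 in USP12 libraries, so control replicate 2 stood apart from the other 3.

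Among the targets, HES4 was the gene with the largest difference of the 9. HES1 and HES4 encode basic helix-loop-helix repressors of the hairy and enhancer of split family. HES4 (ENSG00000188290, chromosome 1, 998962 to 1000172, minus strand) had 88 and 129 counts in control and 41 and 25 counts in USP12 libraries. In these bulk samples, fewer cells that express a gene and less RNA per cell cannot be told apart. In CPM the HES4 counts were 6.66 and 7.15 against 2.95 and 1.73, so the control libraries lay close together and both USP12 libraries were below them. The log2 fold change was -1.56 (SE 0.58, 95% interval -2.97 to -0.15), a 2.94-fold lower level. HES4 met the criterion (edgeR unadjusted p = 0.0354) and not the adjusted threshold (adjusted p = 0.576). Over the 10 alternatives run, the value stayed between -1.98 and -1.22, with adjusted p between 0.0555 and 1. The criterion was lost where only 1 USP12 library was kept, without USP12 replicate 1 (-1.98) and without USP12 replicate 2 (-1.22). Without control replicate 1 the value was -1.61, so within the shared prefix it was as large.

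The nearest protein-coding gene to HES4 was ISG15, an interferon-induced ubiquitin-like protein, which begins 965 bases away on the opposite strand in GENCODE. It was named after its values were seen. ISG15 had 17.0 and 65.3 CPM in control and 2.16 and 1.11 CPM in USP12 cells, a log2 fold change of -4.65 (SE 0.85, edgeR adjusted p = 0.210). ISG15 differed by -1.93 between the control libraries, where HES4 differed by -0.10. The part of this neighbour in the HES4 difference was not tested. The nearest protein-coding genes of NOTCH1, JAG1, JAG2 and NRARP (SEC16A, SLX4IP, NUDT14 and EXD3) had log2 fold changes of -0.62, 0.28, -0.21 and -0.09. Those of NOTCH2, NOTCH3, HES1 and HEY1 were too low to be tested.

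HES1 (ENSG00000114315, chromosome 3, 194136148 to 194138732, plus strand), whose window above holds 2 copies of the core, had 15.1 and 15.1 CPM in control and 12.2 and 12.4 CPM in USP12 cells. The libraries of each group lay close together and the groups were separate. The log2 fold change of HES1 was -0.30 (SE 0.43, 95% interval -1.35 to 0.74, edgeR adjusted p = 0.959), and it stayed between -0.32 and -0.27 over 10 alternatives. Its difference between libraries was 0.00 in control and -0.03 in USP12 cells on the log2 scale, smaller than the difference between the groups. The standard error is moderated across genes and exceeds this spread. The ratio of HES4 to HES1 counts, taken within each library, was 0.440 and 0.473 in control and 0.243 and 0.140 in USP12 libraries. The USP12 libraries lay under the control libraries on this ratio, which reuses the same HES4 counts and is not a separate result.

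NRARP encodes an ankyrin-repeat protein that limits Notch signalling. NRARP (ENSG00000198435, chromosome 9, 137299631 to 137302271, minus strand) had 58 and 114 counts in control and 49 and 73 counts in USP12 libraries, or 4.39 and 6.32 against 3.53 and 5.06 CPM. USP12 replicate 2 lay between the control libraries. For NRARP, the log2 fold change was -0.32 (SE 0.56, 95% interval -1.68 to 1.04). The replicate 1 libraries were lower than the replicate 2 libraries by 0.51 in control and 0.50 in USP12 cells. The NRARP to HES1 ratio of counts was 0.290 and 0.418 in control and 0.290 and 0.408 in USP12 libraries, nearly the same in both groups.

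**Figure D3:**
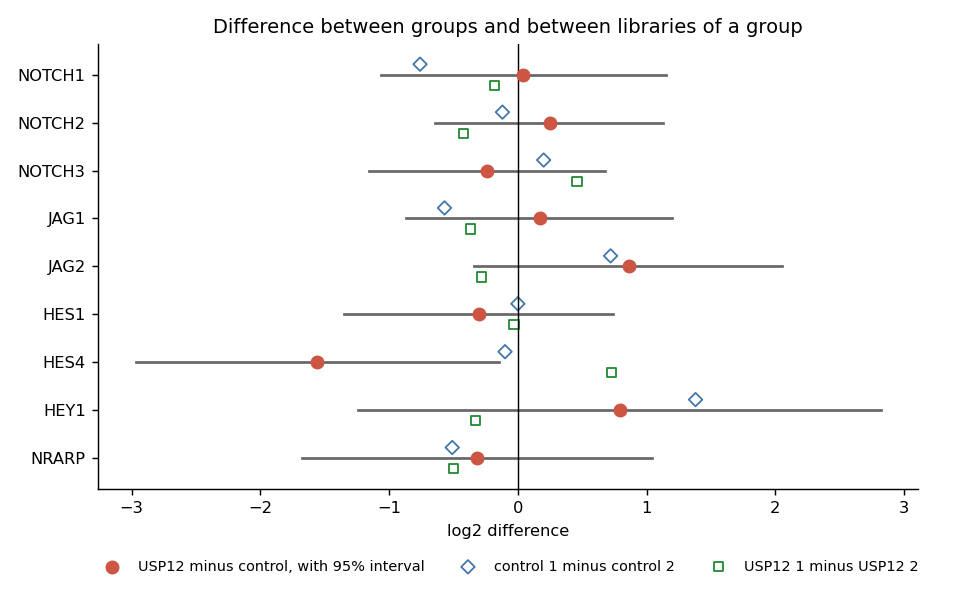
Log2 fold change between USP12 and control cells (filled circles, with 95% intervals as lines) for the 9 tested Notch genes. Open diamonds give control replicate 1 minus 2 and open squares USP12 replicate 1 minus 2, on the same log2 axis. The interval of HES4 lies below 0, and those of the other 8 genes include 0.

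HEY1 encodes a basic helix-loop-helix repressor related to the HES proteins. HEY1 (ENSG00000164683) had 20 and 9 counts in control and 21 and 28 counts in USP12 libraries. In CPM these were 1.51 and 0.499 against 1.51 and 1.94, so control replicate 2 alone was low. HEY1 had a log2 fold change of 0.79 (SE 0.83, 95% interval -1.24 to 2.82), smaller than the difference of 1.38 between the control libraries. Its value was 1.78 when control replicate 1 was left out and 0.22 when control replicate 2 was, so its size depended on which control library was used. At this depth, the interval of HEY1 was the widest of the 9 genes.

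Ordered by level per kilobase of exon, over the 4 libraries, the transcripts ran from NOTCH3 (7.26 ± 1.20 CPM per kb, SD, n = 4) and HES1 (6.66 ± 0.80) through NOTCH2 (5.10 ± 0.84), HES4 (4.13 ± 2.40) and JAG1 (4.11 ± 0.81). NOTCH1 (2.29 ± 0.49 CPM per kb), JAG2 (1.94 ± 0.73) and NRARP (1.83 ± 0.45) followed, then HEY1 (0.249 ± 0.112). The ranges of neighbours in this order overlapped, except between JAG1 and NOTCH1, between NRARP and HEY1, and between HEY1 and DLL1. HES4 had the largest SD of the order. It was at 5.96 and 6.39 CPM per kb in control, above both libraries of JAG1 (3.12 and 4.62), and at 2.64 and 1.55 in USP12 cells, below both (3.79 and 4.90). With the length of the longest transcript in place of all exons, 5 of the 9 tested genes kept their place, and HES1 came first at 8.70 CPM per kb.

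**Figure D4:**
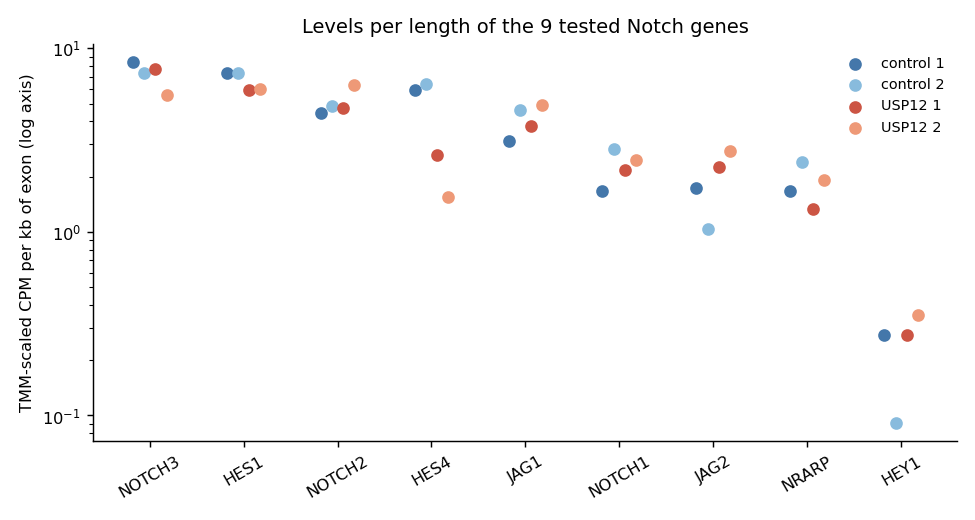
Level per kilobase of exon (TMM-scaled CPM per kb, log axis) of the 9 tested Notch genes in each of the 4 libraries, ordered by their mean. HES4 is the gene whose control libraries (blue) and USP12 libraries (red) lie farthest apart, and HEY1 sits below all others.

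Beyond these genes, 70 other pathway genes were listed by role, and 63 were tested. None had an adjusted p under 0.05 (0 of 63 in edgeR, 1 at an unadjusted p under 0.05). The criterion was met by 1 gene, TLE2, which was lower, or 1.59% against 7.33% of all tested genes. Of the genes tested, 20 had a point estimate above 0 and 43 below, where 53.6% of all tested genes were below 0. The libraries did not overlap for 16 of 63, against 36.5% of all tested genes, and in 54 of 63 the control libraries differed from each other by more than the fold change. The median size of the control difference was 0.92, against 0.88 over all tested genes. That of the fold change was 0.26, against 0.42, so the control difference was the larger over all tested genes too. TLE2 encodes a Groucho-type co-repressor, which HES proteins recruit. It had 59.3 and 13.6 CPM in control and 9.72 and 7.97 CPM in USP12 cells, with a log2 fold change of -2.04 (SE 0.75, edgeR adjusted p = 0.567) that was -0.62 without control replicate 1. TLE2 missed the criterion there and without either USP12 library. Left with a single control library, the pathway genes that met the criterion depended on which control library was kept, and so did the number over all tested genes.

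No gene of the remaining role lists met the criterion. Of 7 other receptors and ligands, 5 were tested. JAGN1 and DLL3, the most abundant, had log2 fold changes of -0.27 and -0.63. NOTCH4 had 0 and 15 counts in control and 27 and 23 in USP12 libraries, and DLL4 had 97 and 33 against 40 and 25. As both are known from endothelium, the endothelial marker values above stand beside them, and the part of such cells was not tested. The 9 genes of receptor cleavage had log2 fold changes between -0.56 and 0.85. They included FURIN, which cleaves the receptor on its way to the surface (-0.56), and NCSTN, the nicastrin subunit of γ-secretase (-0.23). The 5 glycosylation genes lay between -0.32 and 0.09, with POFUT1, which adds O-fucose to the receptor, at 0.09 and RFNG at -0.32. Among 16 tested genes of ubiquitination and trafficking, the range was -1.37 to 0.48, with EPN1, an epsin, at -0.37 and DTX2 at -0.51. The lowest estimate was that of DTX3L, an E3 ligase gene induced by interferon, with 11.1 and 143 CPM in control against 28.1 and 31.8 CPM in USP12 cells, and it was singled out after its values were seen. Its USP12 libraries lay between the control libraries, so its direction turned with the control library used. Of 22 nuclear factors, 21 did not meet the criterion, and TLE5 (listed as AES), a short Groucho-related protein, had a value of -0.81. RBPJ itself, also named after its values were seen, had 10.1 and 24.8 CPM in control and 10.4 and 19.9 CPM in USP12 cells (log2 fold change -0.20, SE 0.61).

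The other HES and HEY family genes had log2 fold changes between -1.62 and 0.45 where tested. HES3 and HES5 were at 0 counts in every library, and 6 of 10 genes were tested. Of these 6, 5 had a point estimate below 0, against 53.6% of all tested genes. The most abundant was BHLHE40, with 281 and 275 CPM in control and 362 and 396 CPM in USP12 cells, a log2 fold change of 0.45 (SE 0.32). HEYL had 11.9 and 10.7 CPM in control and 8.06 and 7.55 CPM in USP12 cells, a log2 fold change of -0.53 (SE 0.46). The groups did not overlap for 4 of the 6 tested genes, HEYL and BHLHE40 among them, with 3 lower and 1 higher. Over all tested genes, 36.5% did not overlap. None of the 6 met a rule.

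Airway lineage genes, which Notch activity sorts between fates, were listed with the low mucin counts of the USP12 cells already known, so their count is not independent evidence. Of 12 secretory genes, 8 were tested and 8 met the criterion as lower, against 4.41% of all tested genes, and 0 had an adjusted p under 0.05 (8 at an unadjusted p under 0.05). The gel-forming mucin gene MUC5AC had 3755.0 and 6984.4 CPM in control and 270 and 319 CPM in USP12 cells, and MUC5B had 2265.4 and 5292.5 against 222 and 287 CPM. SPDEF and FOXA3, transcription factors of mucous cells, had log2 fold changes of -2.31 and -2.84. AGR2, BPIFB1 and LCN2 had -2.55, -7.54 and -6.32. LCN2 had 1474.6 and 225 CPM in the control pair, and its value was -4.40 without control replicate 1, where that of BPIFB1 was -6.06. TFF3 was at 0 counts in both USP12 libraries and at least 4.81-fold lower. TFF3 (15 and 17 counts in control) and BPIFB1 (1461 and 435 in control, 5 and 5 in USP12 libraries) had enough counts to be tested in the control libraries only. Their place among the tested genes thus depended on a high control level. The median of the 8 was -4.04, or -3.37 with TFF3 at its bound. The club cell gene SCGB1A1 was at or under 3 counts in every library. Over all 4 lineage lists, 13 genes met the criterion as lower, and fewer did where a USP12 library was left out. Of the secretory genes, TFF3 alone missed it there.

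In the multiciliated list, 6 of 8 tested genes did not meet the criterion, and 25% did, against 7.33% of all tested genes. FOXJ1, the master factor of multiciliated cells, had 0 and 9 counts in control and 39 and 57 in USP12 libraries, a log2 fold change of 3.63 (SE 1.23, edgeR adjusted p = 0.509). It had enough counts to be tested in the USP12 libraries only. Leaving out control replicate 1 gave 2.74, leaving out control replicate 2 gave 8.56 against a control of 0 counts, which is no bound, and it missed the criterion without USP12 replicate 2. TPPP3 met the criterion as lower (-1.25), but missed it without control replicate 1 (-0.84) and without either USP12 library (-1.13 and -1.34). TUBA1A was at 0.54. MCIDAS, also in this list, had 26 and 27 against 17 and 18 counts. In the basal list, 3 of 3 tested genes met the criterion as lower, against 4.41% of all tested genes, namely TP63 (-1.50), KRT15 (-2.43) and NGFR (-2.68). NGFR (35 and 20 counts in control, 6 and 2 in USP12 libraries) had enough counts to be tested in the control libraries only. NGFR missed the criterion without control replicate 1 (-1.93). Without either USP12 library, TP63 (-1.06 and -2.12) and NGFR (-3.66 and -2.08) missed it. KRT15 missed it without USP12 replicate 1 (-2.25) and met it without USP12 replicate 2 (-2.61). KRT14 was at 0 counts in every library. In the neuroendocrine list, 1 of 4 tested genes met the criterion as lower, against 4.41% of all tested genes. That gene was CHGB (-1.78), which missed it without either USP12 library (-1.87 and -1.68), while UCHL1 was at -0.03. The 9 Notch genes spanned -1.56 to 0.86. The tested secretory genes spanned -7.54 to -2.31 and the basal genes -2.68 to -1.50. The multiciliated genes spanned -1.25 to 3.63 and the neuroendocrine genes -1.78 to -0.03, and these ranges overlap that of the Notch genes.

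**Figure D5:**
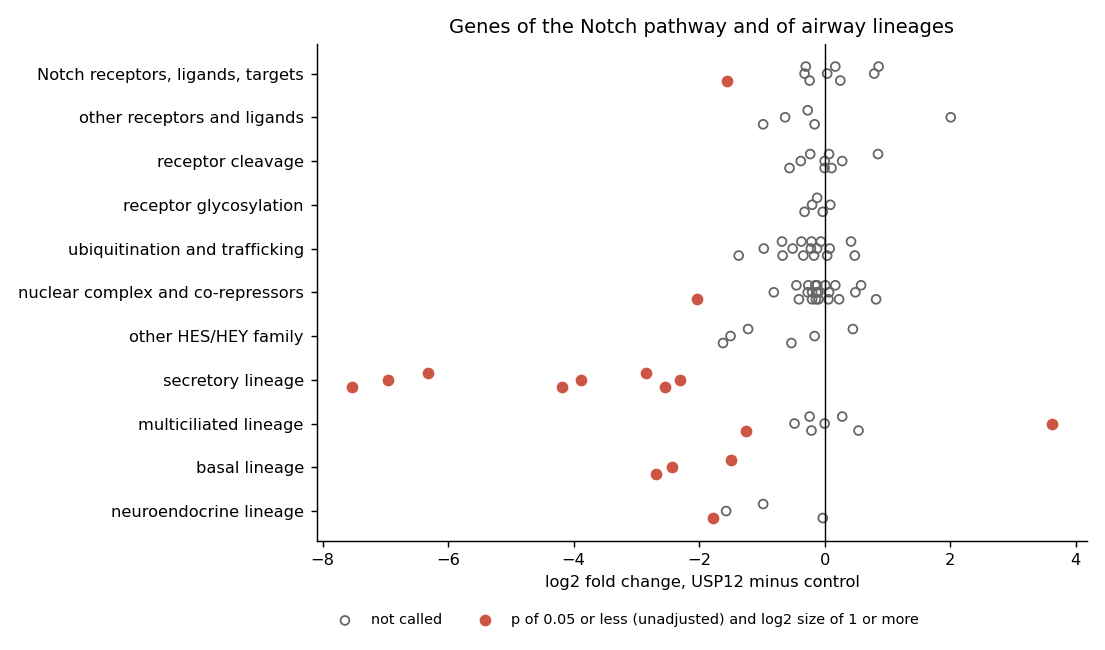
Log2 fold change between USP12 and control cells (horizontal axis) for each tested gene of the Notch list, of 6 other pathway lists and of 4 airway lineage lists (rows). Filled points meet the criterion (unadjusted p no higher than 0.05, log2 fold change at or beyond 1 in either direction), and open points do not. Of the pathway rows, only HES4 and TLE2 are filled, while 8 of 8 secretory genes are.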

How the data were processed

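RNA from 2 control and 2 USP12 A549 libraries was sequenced on an Illumina HiSeq after stranded mRNA preparation. The authors removed adaptors and ribosomal reads with Seqtk, mapped to GRCh38 with HISAT2 2.0.4 and counted uniquely mapped fragments per gene with StringTie 1.3.0 (versions from the submitters' processing notes). The deposited values are raw counts for 50868 genes, without normalization. The annotation release and the strand setting of the counting are not given in the sources used here, so counts of overlapping or antisense genes are uncertain.

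Groups came from the sample titles. Counts were filtered with filterByExpr, scaled by TMM and compared with edgeR 4.0.16 in R 4.3.3 (quasi-likelihood test without a block, Benjamini-Hochberg adjustment over 15222 genes). Standard errors were taken back from the F statistic, and 95% intervals use 4.15 prior degrees of freedom, so both are approximate. Differences between libraries use log2 CPM with a prior count of 2. With 2 libraries a group, an exact permutation test cannot give a p under 0.333. Lengths, places and overlaps came from GENCODE release 44 (GRCh38), and 97.6% of the listed genes were found by identifier. Promoters came from RefSeq. The test was tried on counts drawn with known changes and the same spread setting for every gene. That trial does not measure how the test performs on these libraries, whose pairs differed in spread.

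The genes and lists were chosen with earlier results of these data known. USP12 and the 10 Notch genes were named, and of each list the genes that met a rule and the 2 most abundant. Other named genes were chosen after their values were seen. Some genes that this rule names are not reported here. Alternatives were DESeq2 size factors, no filter, at least 10 counts in every library, the DESeq2 1.42.0 Wald test, edgeR's exact test, the replicate number as a block, leaving out each library, and the longest transcript as length.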

Additional observations from a re-analysis of the deposited data

How the results depend on the processing

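USP12 was higher under every alternative run, and its adjusted p passed 0.05 without a filter on low counts (log2 fold change 6.33), under DESeq2's Wald test (6.31), edgeR's exact test (6.32) and the replicate block (6.43), and after leaving out each library (5.85 to 7.06). Of the 9 Notch genes, 0 passed the adjusted threshold in either direction where all libraries were kept. Without control replicate 1, JAG2 (1.27) passed it as higher, in a fit where calls over all tested genes also rose in both directions. By the criterion, HES4 was lower wherever all libraries were kept, and missed the criterion where a USP12 library was left out. JAG2 met the criterion as higher without control replicate 1. Leaving out a library moved NOTCH1 between -0.28 and 0.50 and JAG1 between -0.09 and 0.51. NOTCH1 turned sign without control replicate 1 (-0.28) and without USP12 replicate 2 (-0.06), and JAG1 did so under the same settings (-0.09 and -0.04). With the longest transcript as length, 5 of the 9 places were kept.

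For the other pathway genes, those lower at an adjusted p under 0.05 went from 0 to 1 without a filter, and were 0 to 11 lower and 0 to 7 higher with a library left out. By the criterion, 1 lower became 4 without a filter and 0 to 9 with a library left out, and 0 higher became 1 with the replicate block and 0 to 6 with a library left out. For the airway lineage genes, 0 lower at an adjusted p under 0.05 became 9 without a filter, 9 in DESeq2, 10 with the exact test and 9 with the replicate block, or 4 to 13 with a library left out, and 0 higher became 1 without a filter, 1 with the replicate block and 0 to 1 with a library left out. By the criterion, 13 lower became 7 to 14 with a library left out, and 1 higher became 0 with at least 10 counts in every library and 0 to 2 with a library left out.

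Over all tested genes, 0 calls in each direction at the adjusted threshold became 361 and 167 without a filter, 273 and 133 in DESeq2, 250 and 160 with the exact test and 251 and 153 with the replicate block. With a library left out, they were 28 to 2612 lower and 12 to 2550 higher. By the criterion, 671 lower and 445 higher became 1173 and 688 without a filter, and 300 to 2134 and 159 to 2495 with a library left out. The cause was not tested.

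The groups share replicate numbers, and deviations of same-numbered libraries correlated by 0.152 across genes. With 2 pairs and no source for a shared batch, they share only a number. Under the replicate block, HES4 was at -1.60, JAG2 at 0.90 and HES1 at -0.30, and no Notch gene changed its call. With the block, without a filter and where a USP12 library was left out, edgeR's prior degrees of freedom came out infinite, so single-gene spread does not enter those fits. A lone library of a group was assumed to vary like the others. The counts of HEY1 (9 to 28) and DLL1 (at most 1) limit what can be said of them.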
